A study of Arabidopsis thaliana with 12 samples.

Results

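Water channel genes of the aquaporin family were followed through dissected mature seeds of Arabidopsis thaliana. The 10 genes were chosen by name among the 32833 gene entries of the count table, with earlier results of these data known. They were the seed vacuole channels TIP3;1 (AT1G73190) and TIP3;2 (AT1G17810), the vacuole channels of vegetative tissue TIP1;1 (AT2G36830) and TIP2;1 (AT3G16240), and 6 plasma membrane channels. The plasma membrane channels were PIP1;1 (AT3G61430), PIP1;2 (AT2G45960), PIP1;4 (AT4G00430), PIP1;5 (AT4G23400), PIP2;1 (AT3G53420) and PIP2;7 (AT4G35100). A further 25 aquaporin genes served for comparison.

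Poly(A) RNA was sequenced from 4 groups of 3 biological replicates, per the labels: seed coat of the double mutant Atsdr4l-5 dig2, seed coat of the wild type Col-0, embryo of the mutant and embryo of Col-0. All plants were grown in long days, and seeds of both genotypes were collected at maturity, about 18 days after pollination. After 2 days at room temperature the seeds were softened in water for 1 to 2 h, and the embryo was separated from the rest by hand. The group labelled seed coat therefore also holds the endosperm, and every library comes from briefly imbibed seeds. AtSDR4L is named after the rice seed dormancy gene Sdr4. What lesion the Atsdr4l-5 and dig2 alleles carry is not given in the labels, and the reads of the mutated genes were not analysed here because the reference annotation used lists neither name.

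Aquaporins are membrane channels that let water, and in some cases small solutes, pass down a gradient. The tonoplast intrinsic proteins (TIPs) sit in vacuole membranes, and the TIP3 proteins are the forms known from the protein storage vacuoles of seeds. The TIP1 and TIP2 proteins are known from the vacuoles of growing and mature vegetative cells. The plasma membrane intrinsic proteins (PIPs) carry water across the cell surface, and PIP1 proteins often need a PIP2 partner to reach it. The transcription factor ABI3 is known to act on the TIP3 promoters.

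The DNA upstream of the TIP3 genes is shown because both genes were high in seeds and higher in the mutant. The sequences are the 250 bases before the annotated gene start, from the RefSeq annotation of TAIR10.1, matched by locus tag. Capitals mark the RY core (CATGCA, the element bound by ABI3, FUS3 and LEC2) and the ABRE core (ACGTG, the element bound by bZIP factors such as ABI5), searched on both strands, so that an ABRE core on the other strand reads CACGT.
TIP3;1 upstream, chr1:27521694-27521943, plus strand: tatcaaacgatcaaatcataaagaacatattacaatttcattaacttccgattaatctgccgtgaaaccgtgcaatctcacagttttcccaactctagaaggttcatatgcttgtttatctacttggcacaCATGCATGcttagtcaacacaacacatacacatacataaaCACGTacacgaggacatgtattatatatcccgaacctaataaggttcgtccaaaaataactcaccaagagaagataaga
TIP3;2 upstream, chr1:6129775-6130024, plus strand: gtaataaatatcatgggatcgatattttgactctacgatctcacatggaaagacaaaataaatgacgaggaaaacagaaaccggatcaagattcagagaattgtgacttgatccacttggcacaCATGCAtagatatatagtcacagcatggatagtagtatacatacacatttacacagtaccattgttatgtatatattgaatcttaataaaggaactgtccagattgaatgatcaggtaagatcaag

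In the window of TIP3;1 a single palindromic stretch matched the RY core on both strands, 119 and 117 bases before the start. The window also held 1 ABRE core, 79 bases before the start. Its first bases overlap the 3′ end of the neighbouring gene AT1G73180. The window of TIP3;2 held 1 RY core, 126 bases before the start, and no ABRE core. Both windows share an unbroken run of 17 bases, acttggcacaCATGCAt, with the RY core in capitals. It begins 129 bases before the start in the first window and 136 bases before it in the other. No other of the 27443 upstream windows of the genome held this run, which was found in 2 windows in all. Over the 595 pairs of aquaporin windows the longest shared run had a median of 8 bases, and 1 pair shared a longer one, of 18 bases.

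An RY core stood in 5 of the 10 members' windows and an ABRE core in 2 of them. The RY core was found in 8.43% of the 27443 windows, the ABRE core in 22.9%, and both together in 2.22%. The other members with an RY core were PIP1;1, PIP1;5 and PIP2;7, and the other with an ABRE core was TIP1;1. Of the 25 other aquaporins, 5 held an RY core and 2 an ABRE core. A match is a description of the letters in the window and not of binding.

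In TAIR10.1, TIP3;1 spans chr1:27521944-27523332 and TIP3;2 spans chr1:6130025-6131627, both on the plus strand with 3 exons. Their coding sequences were 78.0% identical over the aligned bases. None of the 50-base stretches of a member's exons was shared with another aquaporin, so their reads can be told apart. Genes on the opposite strand overlap both TIP3 genes. Reads on that strand made up 0.163% to 0.309% of the TIP3 reads in the 4 groups, and the counts used are strand-specific.

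Gene reads per library ranged from 10301817 to 17619031. Levels are counts per 1000000 reads (CPM) with library sizes scaled by the trimmed mean of M-values (TMM), and levels of different genes are compared as CPM per 1000 bases of exon (RPKM). A gene was called when its adjusted p was under 0.05 in edgeR's quasi-likelihood F test with Benjamini-Hochberg adjustment over 16238 tested genes. All adjusted p-values below come from that test unless another is named, and ± after a log2 fold change is its standard error. The summed level of 8 endosperm markers, nearly all of it the endosperm gene EPR1, was 184353 to 202238 CPM in mutant seed coat and 134903 to 164679 CPM in Col-0 seed coat. In embryo libraries it was 137 to 250.3 CPM in the mutant and 174 to 199 CPM in Col-0. The 8 seed coat markers summed to 45.3 to 66.5 CPM in mutant seed coat, 35.1 to 43.5 CPM in Col-0 seed coat and at most 8.84 CPM in any embryo library, with DP1 at 0 in all 4 groups. The 10 embryo markers summed to 10.3 to 11.7 CPM in mutant seed coat, 28.3 to 31.0 CPM in Col-0 seed coat, 58.9 to 65.3 CPM in mutant embryo and 82.3 to 90.2 CPM in Col-0 embryo. For seed coat over embryo, the 9 embryo markers tested had a median log2 fold change of -3.57 in the mutant and -4.82 in Col-0. The embryo marker sums therefore do not follow the typical marker. In these bulk tissues fewer cells of a type and less RNA per cell cannot be told apart.

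The TIP3 pair made up nearly the whole aquaporin transcript pool of the mature seed. Summed over all 35 aquaporins on the RPKM scale, the pair took 97.8% ± 0.265 in mutant seed coat and 94.6% ± 0.446 in Col-0 seed coat (SD, n = 3 each). In the embryo it took 96.1% ± 0.184 in the mutant and 91.9% ± 1.27 in Col-0. The pair's summed level was 9422, 7851 and 11292 RPKM in the 3 mutant seed coat libraries, against 3745, 4129 and 4038 RPKM in Col-0 seed coat. In the embryo it was 6022, 5289 and 6085 RPKM in the mutant and 1719, 2170 and 2407 RPKM in Col-0. Every mutant library was above every Col-0 library of its tissue.

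The 6 PIP members together had 95.3 ± 12.03 RPKM in mutant seed coat, 89.9 ± 4.58 RPKM in Col-0 seed coat, 191 ± 9.14 RPKM in mutant embryo and 143 ± 1.81 RPKM in Col-0 embryo. PIP1;2, a water channel also tied to carbon dioxide uptake in leaves, held the largest part of this in each group, with 76.9 ± 9.90 RPKM in mutant seed coat, 76.9 ± 4.05 RPKM in Col-0 seed coat, 129 ± 5.05 RPKM in mutant embryo and 101 ± 4.61 RPKM in Col-0 embryo. It ranked below both TIP3 genes and above every other member in each group, with no overlap of libraries. No other PIP member had a mean above 21.0 RPKM in any group.

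The order of the TIP3 pair was not the same in all groups. TIP3;1 had the higher mean RPKM in mutant seed coat, mutant embryo and Col-0 embryo, where its libraries overlapped those of its partner. In Col-0 seed coat the partner was higher and the libraries did not overlap. The ratio of the first to the partner on the RPKM scale was 1.03, 1.03 and 1.06 in mutant seed coat, against 0.642, 0.619 and 0.797 in Col-0 seed coat. In the embryo it was 1.15, 1.16 and 1.11 in the mutant and 1.09, 0.972 and 1.14 in Col-0. The 3 Col-0 seed coat libraries had the lowest ratios of all 12. No test was run on this ratio.

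**Figure D1:**
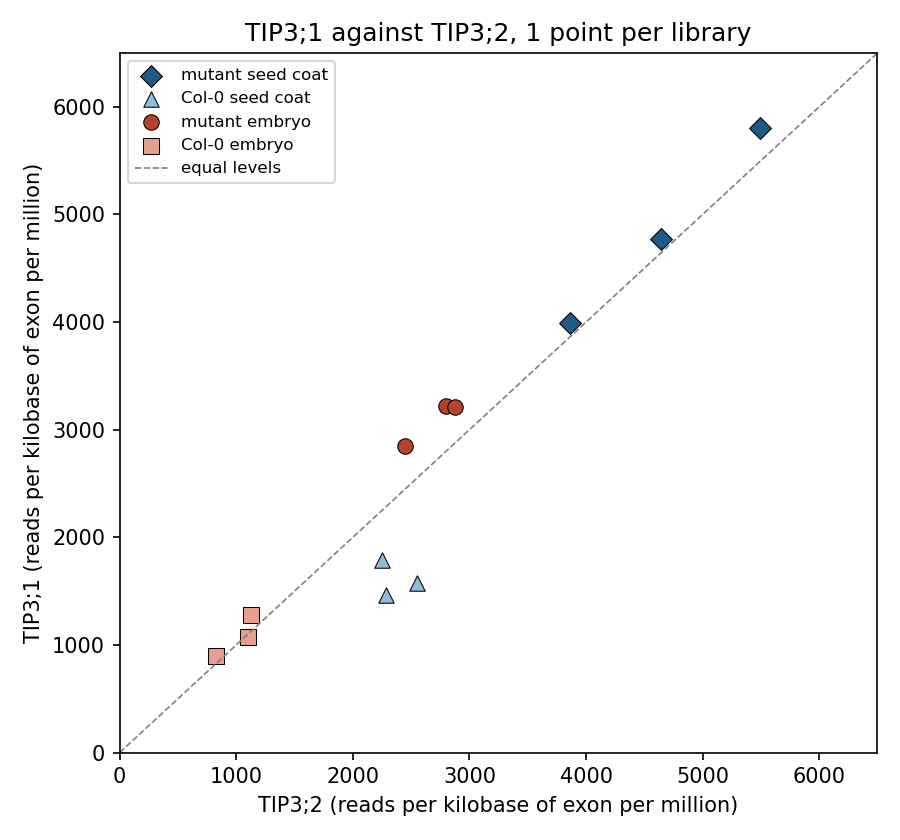
TIP3;1 (vertical axis) against TIP3;2 (horizontal axis) in RPKM, 1 point for each of the 12 libraries, with a dashed line at equal levels. The 3 Col-0 seed coat libraries lie below the line, at ratios of 0.619 to 0.797, and the mutant libraries of both tissues lie just above it.

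The vegetative vacuole channels were close to absent from these libraries. TIP1;1 had 1 read in mutant seed coat, 0 in Col-0 seed coat, 2 in mutant embryo and 0 in Col-0 embryo, summed over the 3 libraries of each group. TIP2;1 had 0, 0, 1 and 1 reads in the same order of groups. A library at 0 allows up to 0.314 CPM by the limit of 3 reads, which covers counting error only. Neither gene had enough reads to be tested, so 8 of the 10 members were.

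**Figure D2:**
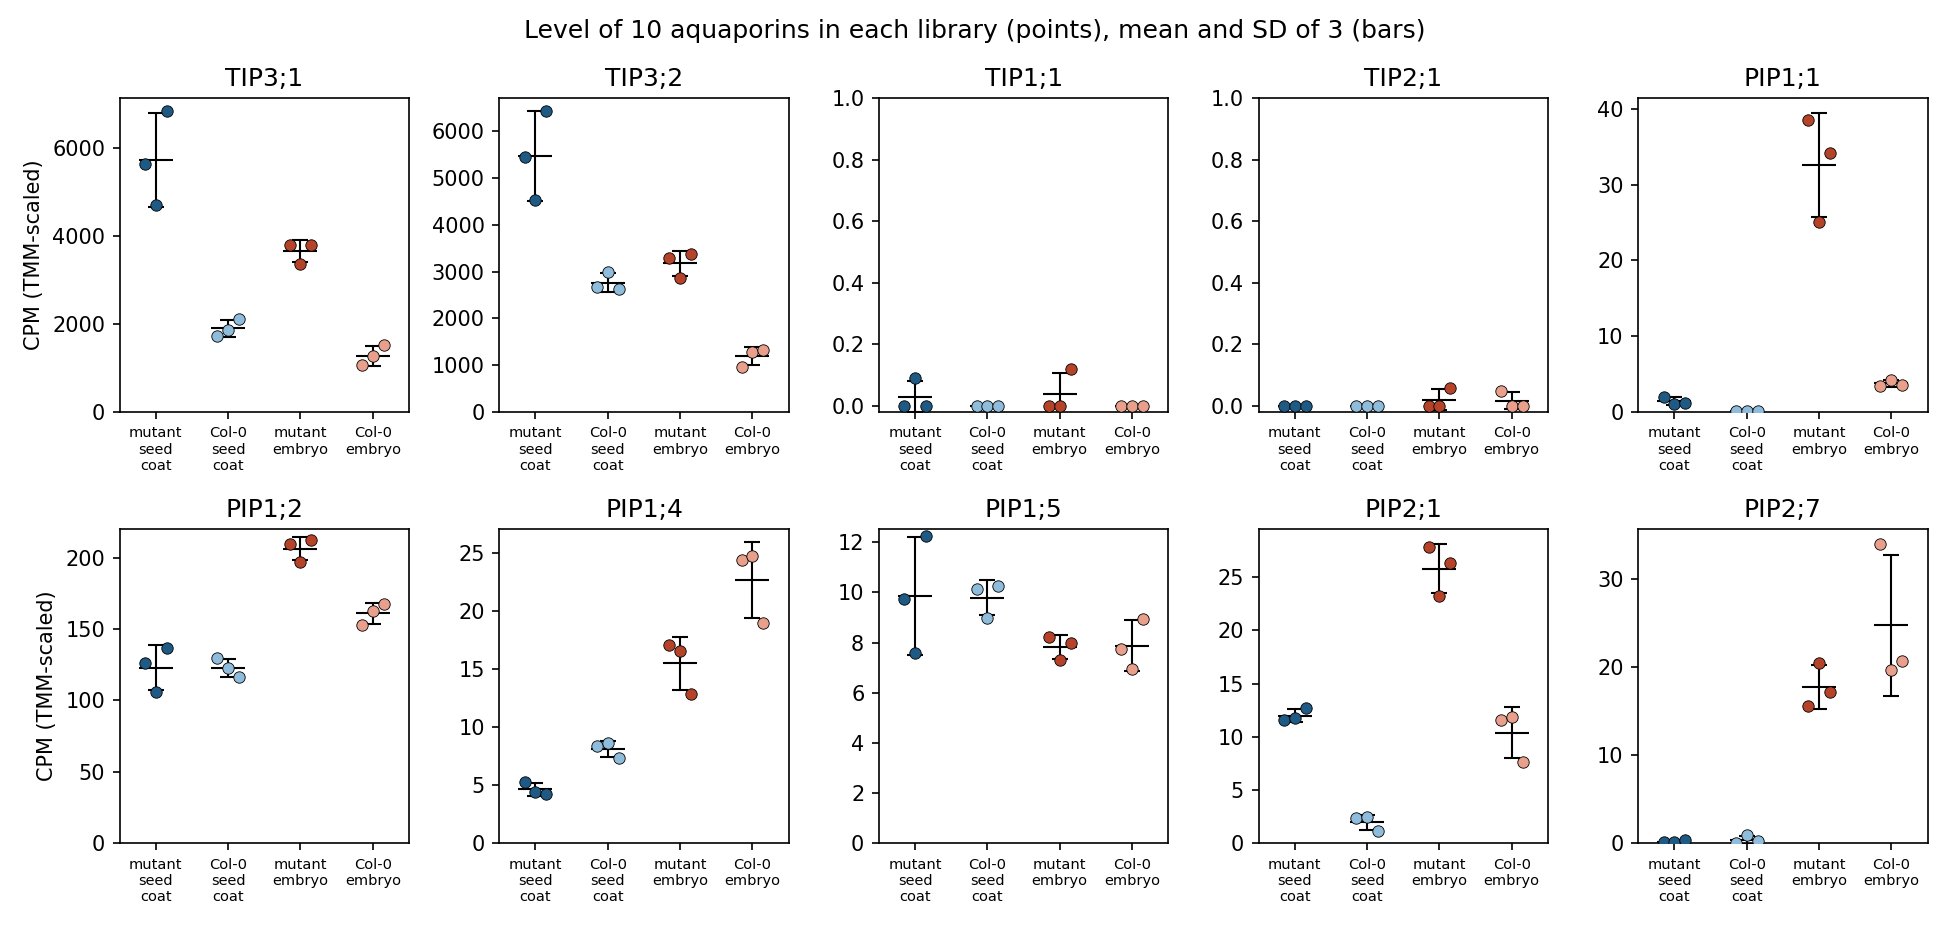
CPM of each of the 10 members in each library (points), with the group mean and SD of 3 (bars), on a scale of its own for each panel. The mutant libraries of both TIP3 genes lie above the Col-0 libraries of the same tissue, and the vegetative vacuole channels lie at or near 0.

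The first comparison asks how the mutant differs from Col-0 in the seed coat with endosperm. Both seed vacuole channels and 2 plasma membrane channels were higher in the mutant, and 1 plasma membrane channel was lower. Of the 8 members tested, 4 were called higher, 1 lower and 3 not called. Over all genes tested, 24.8% were called higher and 23.5% lower, 48.4% in either direction. The members' median log2 fold change was 0.50, beside -0.0038 over all genes tested. The genotypes' libraries were apart, with no overlap, for 5 of the 8, beside 55.5% of all genes tested.

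TIP3;1 had 5631, 4701 and 6838.5 CPM in mutant seed coat, against 1726, 1861 and 2112 CPM in Col-0 seed coat. The lowest mutant library was more than 2 times the highest Col-0 library. The log2 fold change was 1.59 ± 0.17, or 3.01-fold, with an adjusted p of 1.03e-05. TIP3;2 had 5450, 4532 and 6442 CPM in mutant seed coat, against 2675, 2992 and 2635 CPM in Col-0 seed coat. The groups again did not overlap, and the log2 fold change was 0.98 ± 0.16, or 1.98-fold, with an adjusted p of 0.000303.

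PIP2;1, a water channel of the plasma membrane that also acts in guard cells, had 11.6, 11.8 and 12.7 CPM in mutant seed coat, against 2.33, 2.41 and 1.15 CPM in Col-0 seed coat. Its groups lay far apart, with a log2 fold change of 2.56 ± 0.23, or 5.90-fold, and an adjusted p of 2.92e-06. PIP1;1 had 21, 12 and 14 reads in the mutant seed coat libraries, against 1, 2 and 1 reads in Col-0 seed coat. Its log2 fold change was 3.63 ± 0.50 with an adjusted p of 7.53e-05, and the ratio of summed, scaled counts was 13.3 (95% counting interval 4.85 to 50.7).

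PIP1;4 had 5.30, 4.37 and 4.20 CPM in mutant seed coat, against 8.40, 8.60 and 7.33 CPM in Col-0 seed coat. All mutant libraries were lower, with a log2 fold change of -0.82 ± 0.17 and an adjusted p of 0.00152. PIP1;2 had 126, 106 and 137 CPM in mutant seed coat, against 129, 123 and 116 CPM in Col-0 seed coat, with the Col-0 libraries inside the range of the mutant ones. Its log2 fold change was -0.00059 ± 0.099, with a 95% interval of -0.22 to 0.22. PIP1;5, a less studied channel of the same branch, had 9.74, 7.58 and 12.3 CPM in mutant seed coat, against 10.1, 8.98 and 10.3 CPM in Col-0 seed coat. The groups overlapped here too, and the log2 fold change was 0.01 ± 0.17, with an interval of -0.35 to 0.38. PIP2;7 had 6 reads in mutant seed coat and 15 in Col-0 seed coat, 12 of these in replicate 2, and was not called (log2 fold change -1.12 ± 0.95, adjusted p = 0.353). Scaled by total reads only, which lowers the median log2 fold change of all genes by 0.29, PIP1;2 was called lower (-0.30, adjusted p = 0.0123). The embryo marker sum was lower in mutant seed coat (10.3 to 11.7 CPM) than in Col-0 seed coat (28.3 to 31.0 CPM). Of the 9 embryo markers tested there, 3 were called lower in the mutant and 6 were not called. Endosperm markers had 2 of 3 tested called higher in the mutant, and seed coat markers 2 of 4, beside 24.8% of all genes tested. Of the endosperm calls 1 was lost with scaling by total reads only (adjusted p = 0.155) and with only the groups compared (adjusted p = 0.0679). It was also lost without 3 of the libraries, each left out singly. The part of these markers in the seed coat results was not tested.

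The second comparison asks the same of the embryo. Both TIP3 genes and 3 PIP members were higher in the mutant embryo, and 1 PIP member was lower. Of the 8 members tested, 5 were called higher, 1 lower and 2 not called. Over all genes tested, 25.4% were called higher and 21.4% lower, 46.9% in either direction. The members' median log2 fold change was 0.84, beside 0.0025 over all genes tested. Libraries did not overlap for 6 of the 8, beside 57.3% of all genes tested. The embryo marker sum was lower in mutant embryo (58.9 to 65.3 CPM) than in Col-0 embryo (82.3 to 90.2 CPM), with 5 of the 9 tested markers called lower. Of the 3 endosperm markers tested 1 was called higher, NCED6, an enzyme of abscisic acid synthesis named here after its values were seen. It had 26.4, 17.2 and 18.9 CPM in mutant embryo, against 0.624, 0.431 and 1.07 CPM in Col-0 embryo, a log2 fold change of 4.88 ± 0.35 (adjusted p = 4.15e-07). NCED6 was also called higher in mutant seed coat, at 2.36 to 2.96 with 1 library left out (adjusted p at most 0.000359). The summed endosperm markers, 137 to 250.3 CPM in mutant embryo and 174 to 199 CPM in Col-0 embryo, overlapped. The part of these markers in the embryo results was not tested.

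TIP3;1 had 3796, 3354 and 3782 CPM in mutant embryo, against 1057, 1261 and 1511 CPM in Col-0 embryo. The mutant libraries were close together and all far above Col-0, with a log2 fold change of 1.51 ± 0.17, or 2.85-fold, and an adjusted p of 1.68e-05. TIP3;2 had 3288, 2866 and 3375 CPM in mutant embryo, against 964, 1291 and 1320 CPM in Col-0 embryo. Its log2 fold change was 1.41 ± 0.16, or 2.67-fold, with an adjusted p of 2.06e-05.

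PIP1;1, one of the main water channels of growing plants, had 38.5, 25.1 and 34.2 CPM in mutant embryo, against 3.41, 4.25 and 3.61 CPM in Col-0 embryo. This was the largest fold among the members in the embryo, a log2 fold change of 3.12 ± 0.20, or 8.68-fold, with an adjusted p of 1.86e-07. On the RPKM scale it was the second PIP member of the mutant embryo, at 21.0 ± 4.40, and the last of the 6 in Col-0 embryo, at 2.41 ± 0.28. PIP2;1 had 27.8, 23.3 and 26.4 CPM in mutant embryo, against 11.6, 11.9 and 7.61 CPM in Col-0 embryo. Its groups did not overlap, and the log2 fold change was 1.31 ± 0.19, with an adjusted p of 0.000108.

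PIP1;2 had 209.7, 197 and 212 CPM in mutant embryo, against 153, 162 and 168 CPM in Col-0 embryo. The groups did not overlap, and the log2 fold change was 0.36 ± 0.099 with an adjusted p of 0.0100. That call was lost without mutant embryo replicate 1 (0.30, adjusted p = 0.0732) and when libraries were scaled by total reads only (0.0064, adjusted p = 0.960), which lowers the median of all genes by 0.35. PIP1;4 had 17.1, 16.5 and 12.9 CPM in mutant embryo, against 24.4, 24.8 and 18.9 CPM in Col-0 embryo. All 3 mutant libraries were lower, with a log2 fold change of -0.55 ± 0.14 and an adjusted p of 0.00677.

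PIP2;7, a channel of the plasma membrane whose amount is known to be controlled by trafficking and by degradation, had 15.6, 20.5 and 17.2 CPM in mutant embryo, against 34.0, 19.6 and 20.7 CPM in Col-0 embryo. The groups overlapped and it was not called (log2 fold change -0.48 ± 0.28, adjusted p = 0.181), but it was called lower with scaling by total reads only (-0.84, adjusted p = 0.0314). PIP1;5 had 8.23, 7.31 and 7.97 CPM in mutant embryo, against 7.73, 6.94 and 8.96 CPM in Col-0 embryo. The Col-0 libraries spanned the mutant ones, and the log2 fold change was -0.0052 ± 0.16, with a 95% interval of -0.36 to 0.35.

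**Figure D3:**
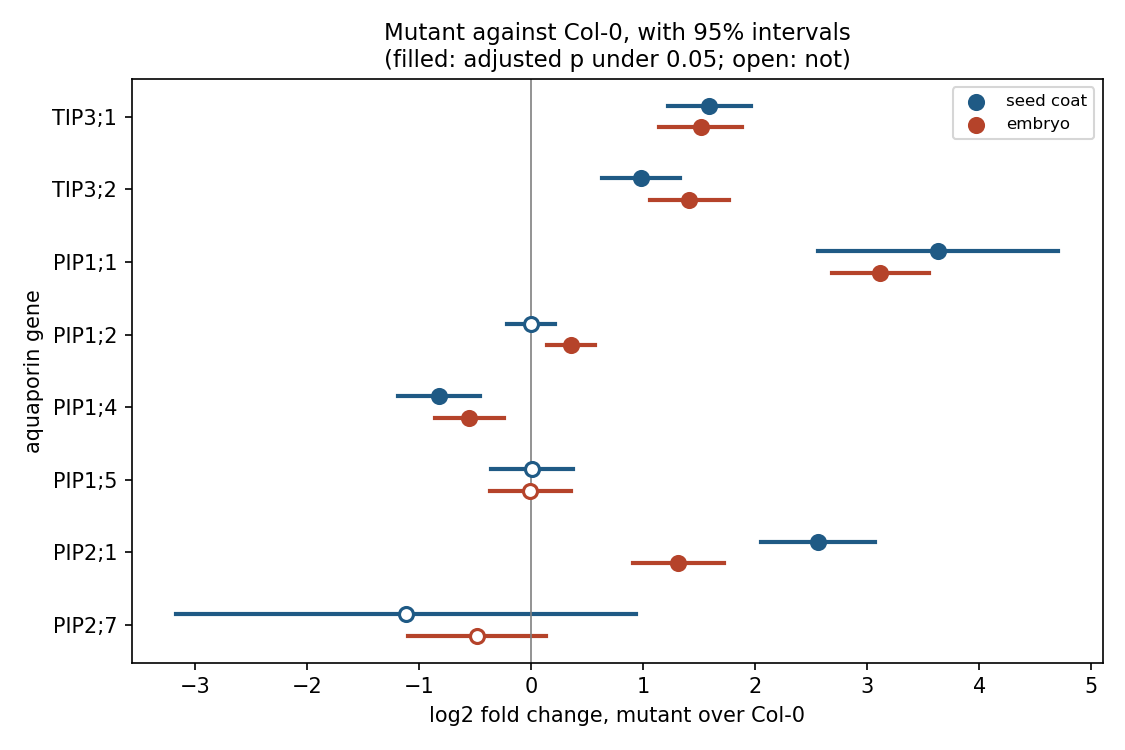
Log2 fold change of the mutant over Col-0 (horizontal axis) for the 8 members tested, in seed coat and embryo, with 95% intervals, where filled points have an adjusted p under 0.05, and both TIP3 genes and 2 PIP members have filled points above 0 in both tissues, and 1 PIP member has them below 0 in both.

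The mutant effect in the seed coat was then set against that in the embryo by the interaction of genotype and tissue. Of the 8 members tested, 1 had a larger log2 fold change in the seed coat and 7 were not called. Over all genes tested, 2.02% were called larger and 3.72% smaller, 5.74% in either direction. PIP2;1 was the member called, with log2 fold changes of 2.56 in seed coat and 1.31 in embryo, a difference of 1.25 ± 0.30 (adjusted p = 0.0304). It was lost without each of 8 libraries in turn, namely Col-0 embryo replicates 1 and 2, Col-0 seed coat replicate 3, mutant embryo replicates 1, 2 and 3, and mutant seed coat replicates 1 and 3, at adjusted p-values of 0.0503 to 0.0690.

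For TIP3;1 the difference was 0.08 ± 0.23, with a 95% interval of -0.43 to 0.59, so the data do not tell apart differences within that range. For TIP3;2 it was -0.43 ± 0.23 (adjusted p = 0.306). Embryo and seed coat libraries of 1 genotype and number deviated together, and with that replicate number as a block 2 members were called smaller. These were TIP3;2, at -0.45 (adjusted p = 0.0288), and PIP1;2, at -0.37 (adjusted p = 0.0414), whose unblocked difference was -0.36 ± 0.14 (adjusted p = 0.163).

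The tissue comparison asks how the seed coat with endosperm differs from the embryo within each genotype. The TIP3 genes were higher in the seed coat in both genotypes, and 5 PIP members were lower. In the mutant 2 of the 8 members tested were called higher and 5 lower, beside 16.9% and 18% of all genes tested, 34.9% in either direction. In Col-0 the same counts of 2 and 5 stood beside 24.4% and 22.2%, 46.6% in either direction. The members' median log2 fold change was -0.93 in each genotype, beside -0.01 over all genes in the mutant and 0.0065 in Col-0. PIP2;7 passed the filter on low counts through the embryo, and PIP1;1 had 4 reads in Col-0 seed coat, so the counts give no support on their own. Libraries did not overlap for 7 of the 8 in the mutant, beside 48.1% of all genes tested, and for 8 of the 8 in Col-0, beside 55.7%.

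TIP3;2 had a log2 fold change of seed coat over embryo of 0.79 ± 0.16 in the mutant (adjusted p = 0.00232) and 1.22 ± 0.16 in Col-0 (adjusted p = 7.62e-05). For TIP3;1 it was 0.65 ± 0.17 in the mutant (adjusted p = 0.00916) and 0.57 ± 0.17 in Col-0 (adjusted p = 0.0135). Both calls of the last-named gene were lost with scaling by total reads only, at 0.23 in the mutant (adjusted p = 0.125) and 0.11 in Col-0 (adjusted p = 0.474), a scaling that lowers the median of all genes by 0.41 and 0.47. The Col-0 call was also lost without Col-0 embryo replicate 1 (0.45, adjusted p = 0.0537) or Col-0 seed coat replicate 3 (0.49, adjusted p = 0.0549).

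PIP2;7 and PIP1;1 were far lower in the seed coat than in the embryo. PIP2;7 had 6 reads in mutant seed coat and 878 in mutant embryo, and 15 reads in Col-0 seed coat and 1440 in Col-0 embryo. The ratio of embryo to seed coat counts, scaled for library size, was 98.4 in the mutant (95% counting interval 45.02 to 269) and 63.5 in Col-0 (38.4 to 114). Of the 15 Col-0 seed coat reads 12 were in replicate 2, and with 1 library left out the log2 fold change of seed coat over embryo in Col-0, -5.93 over all libraries, ranged from -7.56 (without that library) to -5.33 (without Col-0 seed coat replicate 1), past the counting interval. In the mutant it was -6.57, and -7.44 without mutant seed coat replicate 3. PIP1;1 had a log2 fold change of -4.53 ± 0.24 in the mutant (adjusted p = 2.17e-08) and a ratio of embryo to seed coat counts of 35.4 in Col-0 (13.6 to 131).

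PIP2;1 had a log2 fold change of -1.11 ± 0.19 in the mutant (adjusted p = 0.000711) and -2.35 ± 0.23 in Col-0 (adjusted p = 5.95e-06). PIP1;4, a channel tied to carbon dioxide and hydrogen peroxide transport, had -1.75 ± 0.16 in the mutant and -1.48 ± 0.15 in Col-0, with adjusted p-values of 4.18e-06 and 8.01e-06. PIP1;2 had -0.75 ± 0.10 in the mutant and -0.39 ± 0.099 in Col-0, with adjusted p-values of 9.70e-05 and 0.00659. PIP1;5 was not called in either genotype, at 0.33 ± 0.17 in the mutant and 0.31 ± 0.17 in Col-0. Without mutant seed coat replicate 2 it was called higher in the mutant (0.53, adjusted p = 0.0260). The embryo and endosperm marker sums given above differ between these tissues in the same libraries, and their part in the tissue differences was not tested.

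**Figure D4:**
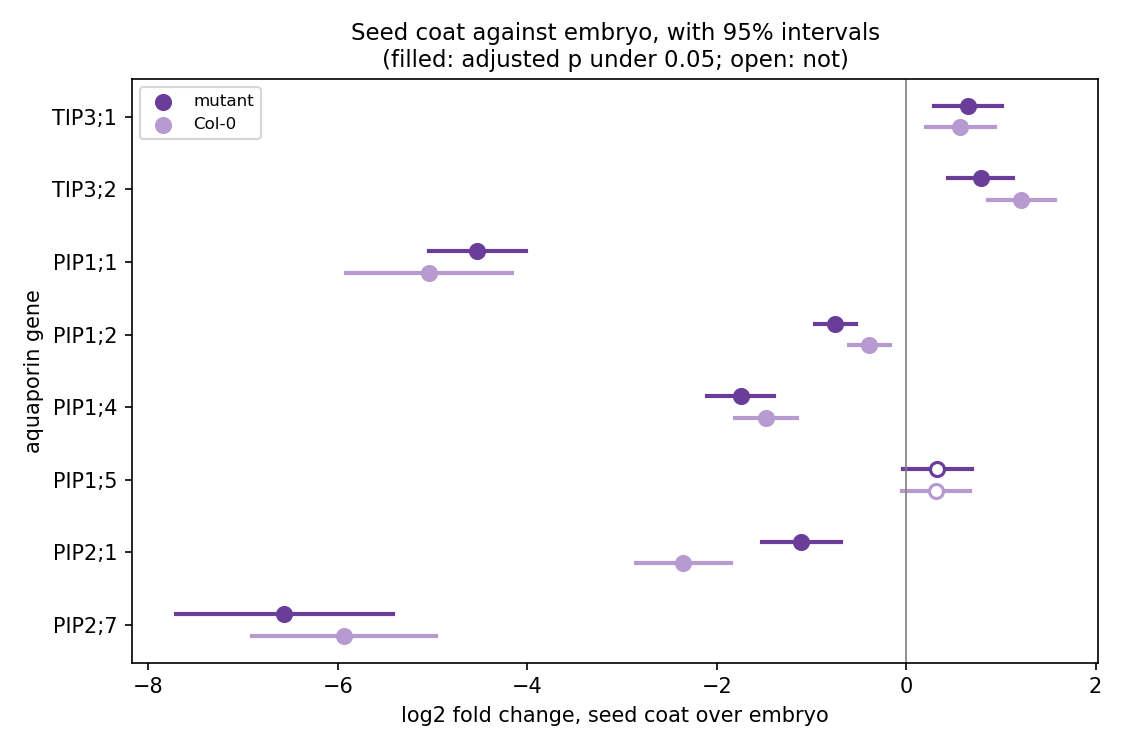
Log2 fold change of seed coat over embryo (horizontal axis) for the 8 members tested, in the mutant and in Col-0, with 95% intervals, where filled points have an adjusted p under 0.05. The TIP3 genes lie above 0 and 5 PIP members lie below it, with PIP2;7 lowest, at -6.57 in the mutant and -5.93 in Col-0.

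Of the 25 other aquaporins, 9 had enough reads to be tested. In the seed coat 3 were called higher in the mutant and 1 lower, beside 24.8% and 23.5% of all genes tested. In the embryo 2 were higher and 2 lower, beside 25.4% and 21.4%. PIP1;3 had 0.840, 1.73 and 1.83 CPM in mutant embryo, against 5.04, 4.25 and 6.76 CPM in Col-0 embryo, a log2 fold change of -1.87 ± 0.29 (adjusted p = 0.000231). PIP1;4, the aquaporin nearest to it in coding sequence (84.95% identity), was also lower in mutant embryo, and PIP1;1 (81.6% identity) was higher. SIP1;1, a channel of the endoplasmic reticulum, had a log2 fold change of 0.40 ± 0.10 in the embryo (adjusted p = 0.00719), which was lost with scaling by total reads only (0.05, adjusted p = 0.768).

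PIP2;5 was higher in the mutant in both tissues. Its log2 fold change was 0.94 ± 0.27 in the seed coat (adjusted p = 0.0112), lost without mutant seed coat replicate 3 (adjusted p = 0.0535). In the embryo it was 0.81 ± 0.25 (adjusted p = 0.0198), lost without Col-0 embryo replicate 3 (adjusted p = 0.0688) or mutant embryo replicate 1 (adjusted p = 0.107) and with scaling by total reads only (adjusted p = 0.126).

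NIP1;2, of the nodulin-26-like branch, was the most abundant of these 25 in the seed coat, with 116, 120.1 and 120.5 CPM in the mutant, against 158, 196 and 144 CPM in Col-0. The log2 fold change of the mutant was -0.48 ± 0.15 (adjusted p = 0.0191), lost without Col-0 seed coat replicate 2 (adjusted p = 0.0935) or mutant seed coat replicate 1 (adjusted p = 0.0540). In the embryo it was -0.43 ± 0.16 (adjusted p = 0.0442), lost without Col-0 seed coat replicate 1, Col-0 embryo replicates 2 or 3, or mutant embryo replicates 2 or 3, at adjusted p-values of 0.0542 to 0.207. Seed coat over embryo, NIP1;2 had a log2 fold change of 3.23 ± 0.17 in the mutant and 3.29 ± 0.17 in Col-0, with adjusted p-values of 2.14e-08 and 1.35e-08. This direction was opposite to that of the 5 PIP members called between the tissues.

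Regulators of the seed maturation program, the class of transcription factors known to act on seed storage genes, were read in the same fits. Of the 8 listed, 2 had too few reads to be tested. In the seed coat 4 of the 6 tested were called higher in the mutant and 2 were not called, beside 24.8% of all genes tested called higher. In the embryo 5 of the 6 were higher and 1 was not called, beside 25.4%. Of these 5, EEL in the embryo (0.40 ± 0.13, adjusted p = 0.0211) was lost with scaling by total reads only (0.043, adjusted p = 0.762), without Col-0 embryo replicates 1 or 3 and without mutant embryo replicate 1 (adjusted p = 0.0691 to 0.140). ABI3, the B3 factor known to act on the TIP3 promoters, had 299 ± 25.003 CPM in mutant seed coat and 121 ± 10.9 CPM in Col-0 seed coat, a log2 fold change of 1.30 ± 0.12 (adjusted p = 3.26e-06). In the embryo it had 368 ± 45.6 CPM in the mutant and 139.7 ± 14.9 CPM in Col-0, a log2 fold change of 1.40 ± 0.12 (adjusted p = 1.99e-06). FUS3, a related B3 factor, had a log2 fold change of 1.56 ± 0.20 in the seed coat and 3.20 ± 0.24 in the embryo. EEL, a bZIP factor of the ABI5 group, had 2.07 ± 0.14 in the seed coat, and ABI5 itself had 0.95 ± 0.17 in the embryo.

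Genes known to act on PIP proteins after they are made moved in both directions. Of the 7 tested, 3 were higher and 1 lower in mutant seed coat, beside 24.8% and 23.5% of all genes tested. In mutant embryo 4 were higher and 1 lower, beside 25.4% and 21.4%, and 2 of the 4 were lost with scaling by total reads only. The same 2 were each also lost without 3 of the 12 libraries, left out singly (adjusted p = 0.0513 to 0.134). Of these, 1 was lost with no filter on low counts (adjusted p = 0.0581) and the other with only the groups compared (adjusted p = 0.0835). OST1, a kinase of abscisic acid signalling known to phosphorylate PIP2;1, had 78.0 ± 5.73 CPM in mutant seed coat and 11.3 ± 3.81 CPM in Col-0 seed coat, a log2 fold change of 2.79 ± 0.25 (adjusted p = 2.42e-06). TSPO, which binds PIP2;7 and takes it to degradation, had a log2 fold change of 1.40 ± 0.29 in the seed coat (adjusted p = 0.00152) and 1.52 ± 0.29 in the embryo (adjusted p = 0.000964). RMA1, a ubiquitin ligase of the endoplasmic reticulum, had -0.86 ± 0.18 in the seed coat (adjusted p = 0.00161) and -0.70 ± 0.17 in the embryo (adjusted p = 0.00557). RMA3, a ligase of the same family, had 1.04 ± 0.19 in the embryo (adjusted p = 0.000727).

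Of the 7 tested proton pump genes, whose products energise the same membranes, 1 was called higher, 3 lower and 3 not called in the seed coat, beside 24.8% and 23.5% of all genes tested called higher and lower. In the embryo 1 was higher, 4 lower and 2 not called, beside 25.4% and 21.4%. The call of AHA2, one of these 4, was lost without Col-0 embryo replicate 1 and without mutant embryo replicates 1 or 3, at adjusted p-values of 0.0684 to 0.131. AHA1, a proton pump of the plasma membrane, had a log2 fold change of -1.02 ± 0.095 in the seed coat (adjusted p = 3.39e-06) and -0.73 ± 0.094 in the embryo (adjusted p = 4.96e-05). The vacuolar pump subunit VHA-B1 had -0.77 ± 0.084 in the seed coat and -0.63 ± 0.083 in the embryo, and VHA-A had -0.98 ± 0.074 in the seed coat. VHA-a2, a vacuole membrane subunit of the same pump, was the one higher in the embryo, at 0.56 ± 0.092, a call lost with scaling by total reads only (0.21, adjusted p = 0.0596).

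The genes whose pattern over the 12 libraries was most like that of each TIP3 gene were found by the root mean square difference of mean-centred log2 CPM, which ignores the level. For TIP3;1 the 5 nearest were the tetraspanin gene TET4, at 0.105, AT3G17520, annotated as a late embryogenesis abundant (LEA) protein, AILP1, annotated as an aluminium-induced protein, AT1G54860 and AT5G17190, the last at 0.136, beside a median of 0.954 over all genes tested. For TIP3;2 they were AT1G07040, at 0.132, PDS1, annotated as a dioxygenase, AT4G11910, annotated as STAY-GREEN-like, AT3G06125, annotated only as other RNA, and DSI-1VOC, annotated as desiccation-induced, the last at 0.179, beside a median of 0.914. The distance within the TIP3 pair was 0.308, the smallest between any pair of the 8 members tested, and 154 genes were nearer to TIP3;1 and 94 nearer to TIP3;2 than the other TIP3 gene was. TET4 had 275 ± 41.4 CPM in mutant seed coat, 92.7 ± 6.68 CPM in Col-0 seed coat, 155 ± 10.8 CPM in mutant embryo and 58.4 ± 7.22 CPM in Col-0 embryo, the order of the 4 groups seen for the TIP3 gene it is nearest to. The LEA gene AT3G17520 had 10002 ± 1984 CPM in mutant seed coat, 3639 ± 212 CPM in Col-0 seed coat, 7049 ± 571 CPM in mutant embryo and 2121 ± 274 CPM in Col-0 embryo. PDS1, which acts in tocopherol and plastoquinone synthesis, had 528 ± 46.0 CPM in mutant seed coat, 256 ± 22.2 CPM in Col-0 seed coat, 285 ± 31.0 CPM in mutant embryo and 100.003 ± 3.28 CPM in Col-0 embryo. The patterns were chosen for their likeness and carry no test.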

How the data were processed

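Libraries from 12 samples of 4 groups were analysed from deposited gene counts, 1 whole number of reads per gene and library. Per the submitters' processing notes, the authors used bcl2fastq 2.19, fastp 0.12.4 and STAR 2.7.9a with the build TAIR10. Per the labels' protocols, libraries were directional, poly(A)-selected and carried molecular-identifier adaptors, and whether duplicates were collapsed is not given in the sources used. The strand-specific deposited counts were used, no sample column was left unmapped, and summary entries that name no gene stayed out of library sizes (reads on no feature made up 1.54% to 3.70% and unmapped reads 1.95% to 7.91%).

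A filter on low counts (filterByExpr, minimum count 10 and minimum total 15) left 16238 genes, TMM gave the scaling, and 4 group means were fitted over all 12 libraries with edgeR 4.0.16 in R 4.3.3 (common biological coefficient of variation 0.166). CPM and log2 values for likeness (prior count 2) were computed from those counts. The workflow was run on simulated counts with known changes in few genes. Apart from those changes the simulated libraries shared the same gene proportions and had no replicate pairing, so scaling and pairing were not covered. Exon lengths, positions and upstream windows came from the RefSeq annotation of TAIR10.1, matched by locus tag. Reads ranged from 10301817 to 17619031 per library, and intervals on counts cover counting error only.

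The members, the lists and the tests were chosen with earlier results of these data known. Named genes were all 10 members, other aquaporins called with a group mean of at least 5 CPM, the 5 genes most like each TIP3 gene, and up to 3 members of smallest p per list. Deviations of same-numbered embryo and seed coat libraries correlated at 0.16 to 0.51 in the mutant and 0.27 to 0.46 in Col-0, while same-numbered libraries of different genotypes correlated at -0.47 to 0.016. The labels do not say what the number marks. The main fit had no block, so its tissue and difference tests use no pairing. With the number as a block the difference had 835 larger and 1744 smaller genes, against 328 and 604 without it. Alternatives were 8 other settings, among them DESeq2 1.42.0 and a replicate block, and leaving out each library.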

Additional observations from a re-analysis of the deposited data

Results flagged for a closer look

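The mutant effect differed between seed coat and embryo, by the interaction test of edgeR, for 9 of the genes in the lists read here. Over all genes tested the share was 5.74%. Called were 1 of 8 members, 2 of 9 other aquaporins, 1 of 7 PIP regulators and 1 of 7 proton pumps. Of 6 maturation regulators 1 was larger and 1 smaller. Called markers were 1 of 9 for embryo, 1 of 3 for endosperm and 0 of 4 for seed coat. Among the aquaporins the log2 difference, seed coat minus embryo, was 1.25 for PIP2;1 (adjusted p = 0.0304), 2.18 for PIP1;3 (adjusted p = 0.0416) and 1.58 for SIP2;1 (adjusted p = 0.0262). SIP2;1, a channel of the endoplasmic reticulum, lies below the level set for named genes and was chosen after its values were seen. These calls were lost without 8 of the 12 libraries for PIP2;1, without 8 for PIP1;3 and without 7 for SIP2;1, each left out singly. For PIP1;3 these were Col-0 embryo 1 and 3, Col-0 seed coat 1, 2 and 3, mutant embryo 1, and mutant seed coat 2 and 3. For SIP2;1 they were Col-0 embryo 1, Col-0 seed coat 2 and 3, mutant embryo 1 and 2, and mutant seed coat 1 and 2.

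Among the regulators and pumps the difference was 2.51 for OST1 (adjusted p = 0.00132), 1.68 for EEL (adjusted p = 0.000287), -1.64 for FUS3 (adjusted p = 0.00921) and -0.55 for VHA-A (adjusted p = 0.00876). The VHA-A call was lost without mutant embryo replicate 1 (-0.50, adjusted p = 0.05002) and with no filter on low counts (-0.51, adjusted p = 0.0566).

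Among the tissue markers the difference was -2.16 for the embryo marker PHB (adjusted p = 0.00110) and -2.26 for the endosperm marker NCED6 (adjusted p = 0.0190). The NCED6 call was lost without Col-0 seed coat replicate 3, mutant embryo replicate 1 or mutant seed coat replicate 3 (adjusted p = 0.0503 to 0.0572). PHB and NCED6 were chosen after their values were seen.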

How the results depend on the processing

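Of 311 member results recomputed under other settings, 296 kept their direction and their side of the threshold, as did 449 of 480 with 1 library left out. DESeq2, RLE size factors and unstranded counts changed no member's call. With scaling by total reads only, the all-gene counts of higher and lower genes were 2413 and 6189 for the mutant in seed coat, 2296 and 6882 in embryo, 1282 and 8168 for tissue in the mutant and 1635 and 8601 in Col-0. Members then numbered 2 lower in seed coat and 2 lower in embryo, with 1 higher for tissue in each genotype, and other aquaporins 0 higher in embryo, 1 higher for tissue in Col-0 and 3 lower in the mutant. With the replicate block the difference of effects had 835 larger and 1744 smaller genes and 2 smaller members, and 2 other aquaporins were lower for tissue in the mutant, against 0 with only the groups compared. PIP2;7 had too few reads to be tested in the seed coat with only the groups compared.

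With 1 library left out, larger genes for the difference ranged from 195 to 323, smaller ones from 270 to 555, larger members from 0 to 1 and larger other aquaporins from 0 to 2. Other aquaporins ranged from 1 to 3 higher and 1 to 2 lower in embryo, 0 to 1 lower in seed coat, 1 to 3 higher for tissue in Col-0 and 0 to 1 lower in the mutant, and members from 1 to 2 higher for tissue in Col-0. All genes ranged from 3353 to 4185 higher and 2723 to 3953 lower in embryo, and from 3197 to 3877 lower in seed coat. For tissue they ranged from 3468 to 4117 higher in Col-0 and from 2222 to 2958 lower in the mutant. The cause of these changes was not tested.

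Only results that were not called changed sign. PIP1;2 in seed coat became 0.014 without the 200 most abundant genes and 0.0086 without a filter. PIP1;5 in seed coat became -0.29 with total reads only, -0.014 with only the groups compared and -0.0071 with the replicate block. Its difference became -0.0012 with the replicate block, and its tissue values became -0.087 in the mutant and -0.15 in Col-0 with total reads only. With 1 library left out, PIP1;2 in seed coat ranged from -0.075 to 0.12, and PIP1;5 from -0.17 to 0.20 in seed coat, -0.091 to 0.098 in embryo and -0.13 to 0.24 for the difference. The TIP3;1 difference ranged from -0.062 to 0.26. PIP2;7 ranged from -2.00 to 0.51 in seed coat and from -1.47 to 0.99 for the difference, the highest values being those without Col-0 seed coat replicate 2.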
